A study of Mus musculus with 24 samples.

Results

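ARID1A stayed at 4454 places in both cell lines where no peak of SMARCC1, UTX or KMT2D was called in the line with normal Kmt2d. These regions are here called partner-free sites. They are the peaks of the WT ARID1A list that overlap a mutant ARID1A peak by at least 1 bp and overlap no WT SMARCC1, WT UTX or WT KMT2D peak. They make up 20.1% of the 22199 WT ARID1A peaks and 28.3% of the 15734 that were shared with the mutant line (70.9% of the WT list), of 197727 peaks in all lists together. The sites were chosen by the measured peak calls of ARID1A in both lines and of SMARCC1, UTX and KMT2D in the WT line, so the absence of those proteins is the rule and not a result. The other 11280 shared ARID1A peaks, which overlap at least 1 of the 3 proteins, are called partnered sites and serve as the comparison.

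The study profiled chromatin proteins by CUT&RUN, in which an antibody directs a nuclease to cut and release the DNA around its target. The material was 2 mouse melanoma lines, the Kmt2d WT line 971 and the Kmt2d mutant line 493, both grown in culture, with no treatment named in the labels. Peak lists of 22 libraries were used, 10 from the WT line (ARID1A, ARID2, BRD9, H3K4me3, KMT2D, Menin, PBRM1, SMARCC1, TFAP2A and UTX) and 12 from the mutant line (the same targets without KMT2D, with TFAP2B and with SOX10 by 2 antibodies marked U and T). Each line and target had 1 library and each genotype 1 line, so line and genotype cannot be told apart and no difference between the lines has a replicate check. No test was possible, and the 95% Wilson intervals given in brackets cover counting error only.

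ARID1A is a large DNA-binding subunit of the canonical BAF complex, a SWI/SNF machine that slides and evicts nucleosomes with energy from ATP. SMARCC1 is a core subunit of the SWI/SNF complexes, while ARID2 and PBRM1 mark the related PBAF form and BRD9 the non-canonical form. KMT2D places methyl groups on histone H3 lysine 4 at enhancers, and UTX, the product of Kdm6a, removes methyl groups from lysine 27 within the KMT2D complex. H3K4me3 marks active promoters, Menin is a scaffold of the related KMT2A and KMT2B complexes, and TFAP2A, TFAP2B and SOX10 are transcription factors of the neural crest, from which pigment cells arise. AP-1, the FOS and JUN family of factors, is known to bind many SWI/SNF-dependent enhancers, and CREB and ATF factors bind a related sequence.

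The promoters below show what the strongest partner-free sites at gene starts look like. Each is the 250 bases before the start of a protein-coding gene whose start lies inside such a site, taken from RefSeq on the GRCm38.p6 build and written 5′ to 3′. Capitals mark the AP-1 letters (TGANTCA, N being any base) or the CREB and ATF letters (TGACGTCA). Among the starts listed in the promoter table used, Bag3, Sel1l, F2r and Cops8 are the 4 strongest with the AP-1 letters. The 2 strongest without them are 1810058I24Rik and Coa7, of which Coa7 has the CREB and ATF letters. F2r encodes the thrombin receptor, Cops8 a subunit of the COP9 signalosome and Coa7 an assembly factor of cytochrome c oxidase. These windows were picked for their strength and their letters, so they illustrate and count nothing.
Bag3 promoter, chr7:128523333-128523582, plus strand: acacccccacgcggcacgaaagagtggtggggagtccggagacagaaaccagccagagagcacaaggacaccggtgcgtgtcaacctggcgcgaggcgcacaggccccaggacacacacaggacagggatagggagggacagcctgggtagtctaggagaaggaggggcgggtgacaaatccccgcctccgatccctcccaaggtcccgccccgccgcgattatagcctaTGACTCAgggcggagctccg
Sel1l promoter, chr12:91849158-91849407, minus strand: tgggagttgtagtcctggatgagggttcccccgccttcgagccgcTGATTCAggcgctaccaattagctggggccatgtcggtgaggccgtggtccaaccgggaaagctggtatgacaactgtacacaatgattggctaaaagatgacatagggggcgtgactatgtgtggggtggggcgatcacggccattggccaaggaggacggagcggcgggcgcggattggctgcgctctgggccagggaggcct
F2r promoter, chr13:95618467-95618716, minus strand: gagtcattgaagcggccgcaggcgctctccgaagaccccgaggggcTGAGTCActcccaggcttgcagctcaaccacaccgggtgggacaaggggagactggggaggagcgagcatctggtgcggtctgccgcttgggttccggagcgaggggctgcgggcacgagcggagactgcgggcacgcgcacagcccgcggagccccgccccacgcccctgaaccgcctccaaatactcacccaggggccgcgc
Cops8 promoter, chr1:90603175-90603424, plus strand: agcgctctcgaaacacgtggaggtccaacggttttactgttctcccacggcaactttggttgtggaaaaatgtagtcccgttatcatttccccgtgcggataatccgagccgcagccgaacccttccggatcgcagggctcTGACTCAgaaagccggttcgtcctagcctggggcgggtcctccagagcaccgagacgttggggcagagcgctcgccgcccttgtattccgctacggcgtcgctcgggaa
1810058I24Rik promoter, chr6:35252460-35252709, plus strand: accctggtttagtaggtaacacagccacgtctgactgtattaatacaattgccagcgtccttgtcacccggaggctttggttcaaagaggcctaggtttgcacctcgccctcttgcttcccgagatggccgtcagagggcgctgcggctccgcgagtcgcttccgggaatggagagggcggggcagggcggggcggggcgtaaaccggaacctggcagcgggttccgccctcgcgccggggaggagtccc
Coa7 promoter, chr4:108327902-108328151, plus strand: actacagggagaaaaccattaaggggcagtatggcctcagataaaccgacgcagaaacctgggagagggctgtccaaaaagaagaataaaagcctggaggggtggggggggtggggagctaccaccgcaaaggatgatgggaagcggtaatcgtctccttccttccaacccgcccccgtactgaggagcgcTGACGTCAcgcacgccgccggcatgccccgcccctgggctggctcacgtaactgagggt

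The capitals above fall within 121 bp of the ARID1A summit, the highest point of the peak, in every window that has them. The distance from the centre of the match to the summit was 13 bp at Bag3, 20 bp at Cops8, 50 bp at F2r, 55 bp at Coa7 and 121 bp at Sel1l. Over all 49 protein-coding genes with the AP-1 letters and a start in a partner-free site, taking 1 window for each site, the median was 77 bp, and 19 of the 49 lay within 50 bp. Each start lies inside its site and a window reaches at most 250 bases from the start. The choice of windows thus keeps any letters near the summit, and no distance of other letters was set beside these. Promoter windows of 300 bases, 250 before to 50 after a start, were then searched on both strands for the AP-1 letters TGANTCA, with overlaps with other motifs kept. They held them in 66 of 436 windows with a start inside a partner-free site, 15.1% (12.1 to 18.8), against 7.81% of all 32851 windows. Windows with a start in a partnered site held them in 12.2% (10.5 to 14.2), so the intervals of the shared classes overlap. Among starts inside a WT H3K4me3 peak the shares were 9.73% (7.02 to 13.4) for partner-free sites, 7.46% (5.88 to 9.41) for partnered sites and 3.42% (3.04 to 3.84) where no WT ARID1A peak was called. Base composition was alike in those 3 classes, with a median GC content of 62.3%, 62.7% and 62.3%. Counted by gene, 64 of 417 genes with a start in a partner-free site carried the letters in such a window, 15.3% (12.2 to 19.1). For partnered sites it was 143 of 1121 genes, 12.8% (10.9 to 14.8), and over all windows 2425 of 27025 genes (8.97%). The intervals of the shared classes overlap by gene as well.

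The CREB and ATF letters TGACGTCA occurred in 24 of the 436 windows, 5.50% (3.73 to 8.06), and in 3.06% (2.22 to 4.18) of windows at partnered sites. They stood in 3.16% of windows with a start under WT H3K4me3 and in 1.79% of all windows. The TFAP2 letters GCCNNNGGC occurred in 25.9% (22.03 to 30.2) of the windows at partner-free sites, in 28.2% at partnered sites and in 26.3% of windows with a start under WT H3K4me3. Within the partner-free sites these letters followed the TFAP2A peaks: 31.6% (26.7 to 37.0) of the 310 windows whose start lay in a TFAP2A peak of either line held them, against 11.9% (7.35 to 18.7) of the 126 others. The latter windows were also lower in GC, with a median of 57.2% against 62.7%, and the part of base composition in that difference was not tested. The 6-base letters CATGTG, an E-box that MITF can bind, stood in 6.65% (4.67 to 9.39) of the windows at partner-free sites, 6.11% at partnered sites, 7.06% with a start under WT H3K4me3 and 14.2% of all windows, whose median GC content is 52.7% against 61.5% at partner-free sites. Matches are descriptions of letters, and distal sites could not be searched because no genome sequence was used.

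Partner-free sites were the weaker part of the shared ARID1A peaks. The median WT fold enrichment, the authors' ratio of signal to background at the peak, was 7.13, against 12.8 at partnered sites and 6.56 at WT ARID1A peaks with no mutant counterpart. Their median width was 310 bp against 497 bp. The rank of a site in the WT list went with membership: in 5 classes of equal size of that list, from the weakest to the strongest, 62.7%, 49.0%, 35.6%, 19.1% and 3.60% of the shared peaks were partner-free. A peak call depends on depth and threshold, so a partner missing from a list is not shown to be absent from the site. The strongest class still held 152 partner-free sites, and the highest fold enrichment among them was 31.7. In the mutant list the same places had a median fold enrichment of 9.33, against 14.7 at the partnered sites, each within the mutant list. The WT and mutant summits lay a median of 36 bp apart, and 82.4% were within 100 bp of each other.

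**Figure D1:**
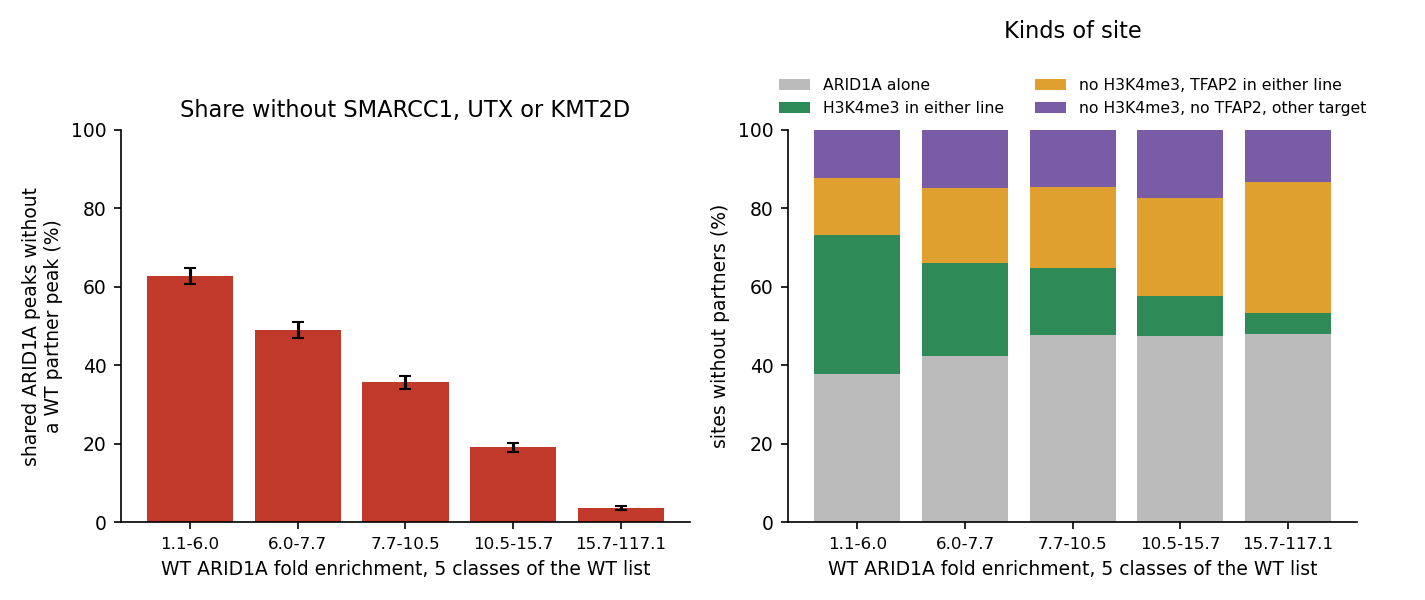
Left, the percent of shared ARID1A peaks with no WT SMARCC1, UTX or KMT2D peak in each of 5 equal classes of WT ARID1A fold enrichment, with 95% Wilson intervals. Right, the kinds of partner-free site in the same classes, by the other peaks called there: the share without partners goes from 62.7% in the weakest class to 3.60% in the strongest, and sites with H3K4me3 go from 35.5% to 5.26%.

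Few of the sites lay at the edge of a partner peak. The median gap to the nearest WT SMARCC1, UTX or KMT2D peak was 21340 bp, 238 sites (5.34%) had one within 1 kb, and 22 had one within 100 bp. Those 22, just inside the rule, had a median fold enrichment of 5.996, and the 46 partnered sites that touch a partner by no more than 100 bp, just outside it, had 5.94. The nearest partnered ARID1A site lay a median of 31058 bp away and the nearest other partner-free site 89860 bp away. Every autosome and the X chromosome held some, from 25.1% of the shared peaks on chromosome 18 to 32.3% on the X.

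Most partner-free sites lay far from gene ends, though most touched a gene body. Of the 4454, 3117 (70.0%, 68.6 to 71.3) were more than 5 kb from any end of a protein-coding gene in the RefSeq annotation of the GRCm38.p6 build, which is also called mm10. A gene end within 1 kb was found for 773, or 17.4% (16.3 to 18.5), and the annotation used does not say which end is the start. Partnered sites had 73.5% beyond 5 kb and 15.4% (14.7 to 16.0) at gene ends, and the whole WT ARID1A list had 14.01% at gene ends. The slightly higher share at gene ends turned around once strength was held alike: above the median fold enrichment of the WT list 9.10% of partner-free and 11.3% of partnered sites were at gene ends, and below it 20.8% and 26.4%. Gene bodies were touched by 56.3% of partner-free sites and 53.4% of partnered sites. Among those beyond 5 kb, 52.5% lay within a gene body, so about as many were intragenic as intergenic; exons and introns were not separated.

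**Figure D2:**
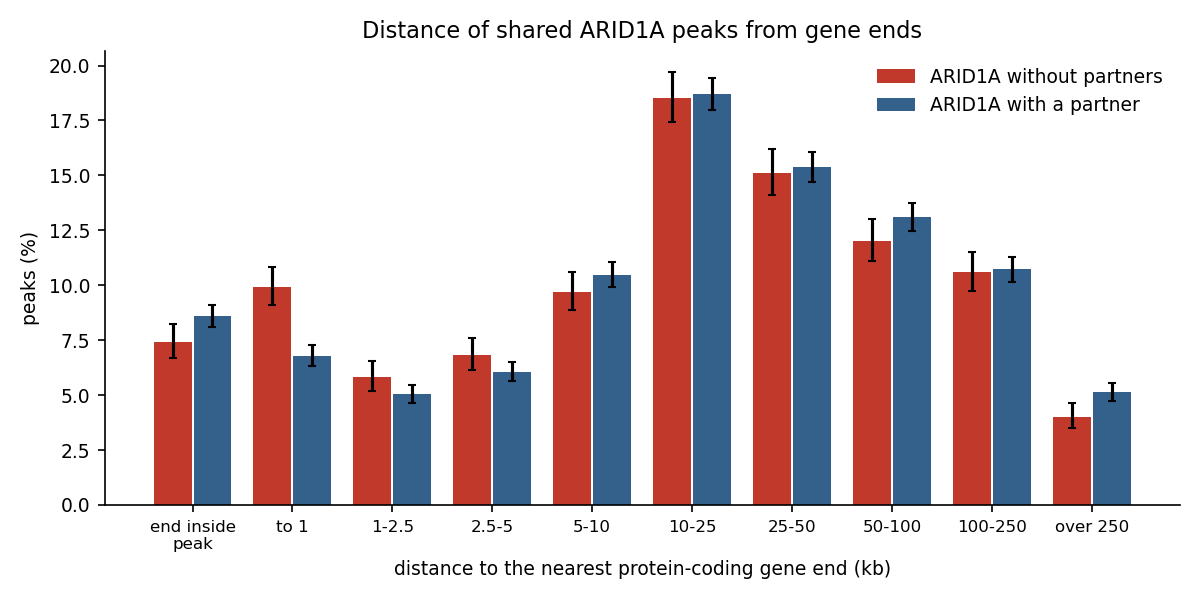
Percent of partner-free (red) and partnered (blue) ARID1A sites by distance in kb to the nearest end of a protein-coding gene, with 95% Wilson intervals. The 2 distributions lie close together, with medians of 16907 bp and 19596 bp, and most sites of either class lie beyond 5 kb.

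The 4454 sites fell into 4 kinds by the peaks of the other 17 lists. The largest, 1936 sites (43.5%, 42.0 to 44.9), had ARID1A of both lines and nothing else called in any of the 22 lists. Among partnered sites, 1817 of 11280 (16.1%) had ARID1A of both lines with exactly 1 WT partner list and nothing else. Partnered sites with more than 1 WT partner list and none of the other 17 lists are not in that count. The 16.1% is therefore not a like counterpart of the 43.5%. The 1936 ARID1A-alone sites were not the faintest: their median fold enrichment was 7.70, 85.3% lay beyond 5 kb and 2.84% at gene ends. A further 1003 (22.5%) had H3K4me3 in at least 1 line, and 65.0% of these were at gene ends, with a median fold enrichment of 5.996. Another 873 (19.6%) had no H3K4me3 but TFAP2A or TFAP2B, with a median of 7.81 and 80.2% beyond 5 kb. The other 642 (14.4%) had neither, and mutant UTX was called at 52.8% of them, mutant SOX10 U at 28.8% and mutant SMARCC1 at 19.3%. Only 8 partner-free sites were called in 12 or more of the 22 libraries, against 1137 (10.1%) of partnered sites, a comparison in which the partnered sites have up to 3 more lists by the rule.

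H3K4me3 was about as frequent at partner-free as at partnered sites before strength was considered, and Menin was less frequent. WT H3K4me3 was called at 876 sites, 19.7% (18.5 to 20.9), against 19.3% of partnered sites and 16.6% of all WT ARID1A peaks. WT Menin was called at 19.4% (18.3 to 20.6) against 24.3% (23.5 to 25.1), with 19.3% over all WT ARID1A peaks. In the mutant line the shares of partner-free sites were 21.1% for H3K4me3 (19.9% of partnered sites, 16.9% of all WT ARID1A peaks) and 21.1% for Menin (23.4% of partnered sites, 18.1% of all). Partnered sites weighted to the same mix of gene distance and fold enrichment class had 23.8% with WT H3K4me3 and 26.1% with WT Menin. On average over place and strength the partner-free sites thus had less of both. At gene ends alone WT H3K4me3 was at 78.9% of partner-free and 75.4% of partnered sites. There it was at 86.8% against 83.1% in the weakest class, and lower at partner-free sites in every stronger class. Both values rested on the weaker peaks: above the median fold enrichment of the WT list WT H3K4me3 was at 9.94% of partner-free and 15.2% of partnered sites, and WT Menin at 11.8% and 21.5%. H3K4me3 was the same in the 2 lines at most of these sites: 814 had it in both, 62 in the WT line only and 127 in the mutant line only. These are 18.3%, 1.39% and 2.85% of partner-free sites, against 16.5%, 2.77% and 3.32% of partnered sites. The summits of H3K4me3 lay a median of 447 bp from the ARID1A summit, against 102 bp for Menin and 82 bp for TFAP2A in the WT line. Only overlapping peaks were measured, and wider peaks allow longer distances. The median peak widths of the 3 lists were 1323 bp, 588 bp and 457 bp, in the same order.

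TFAP2A was called less often at partner-free than at partnered sites. In the WT line it was present at 989 sites, 22.2% (21.0 to 23.4), against 40.0% (39.1 to 40.9) of partnered sites, 34.5% of partnered sites weighted to the same place and strength, and 29.7% of all WT ARID1A peaks. Across the 5 classes of fold enrichment the share lay between 19.3% and 25.5% at partner-free sites and between 34.6% and 46.9% at partnered sites, so the ranges did not overlap. At gene ends TFAP2A was common in either case, with 56.7% against 73.0%, and beyond 5 kb it was called at 13.2% against 32.1%. In the mutant line TFAP2A was called at 33.0% of partner-free sites, against 48.6% of partnered sites and 34.4% of all WT ARID1A peaks. Counting the lines together, 898 partner-free sites had TFAP2A in both, 91 in the WT line only and 571 in the mutant line only. As a share of all sites, mutant-only TFAP2A was at 12.8% of partner-free and 12.7% of partnered sites, and TFAP2A in both lines at 20.2% and 35.9%. Among sites without WT TFAP2A, the mutant line had it at 16.5% (15.3 to 17.8) of partner-free and 21.2% (20.3 to 22.2) of partnered sites. The mutant TFAP2A list is the longer, with 18530 peaks against 11636, and the part of list length was not tested. TFAP2B, mapped in the mutant line only, was at 17.2% (19.3% of all WT ARID1A peaks), and 95.3% of those sites also had mutant TFAP2A.

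**Figure D3:**
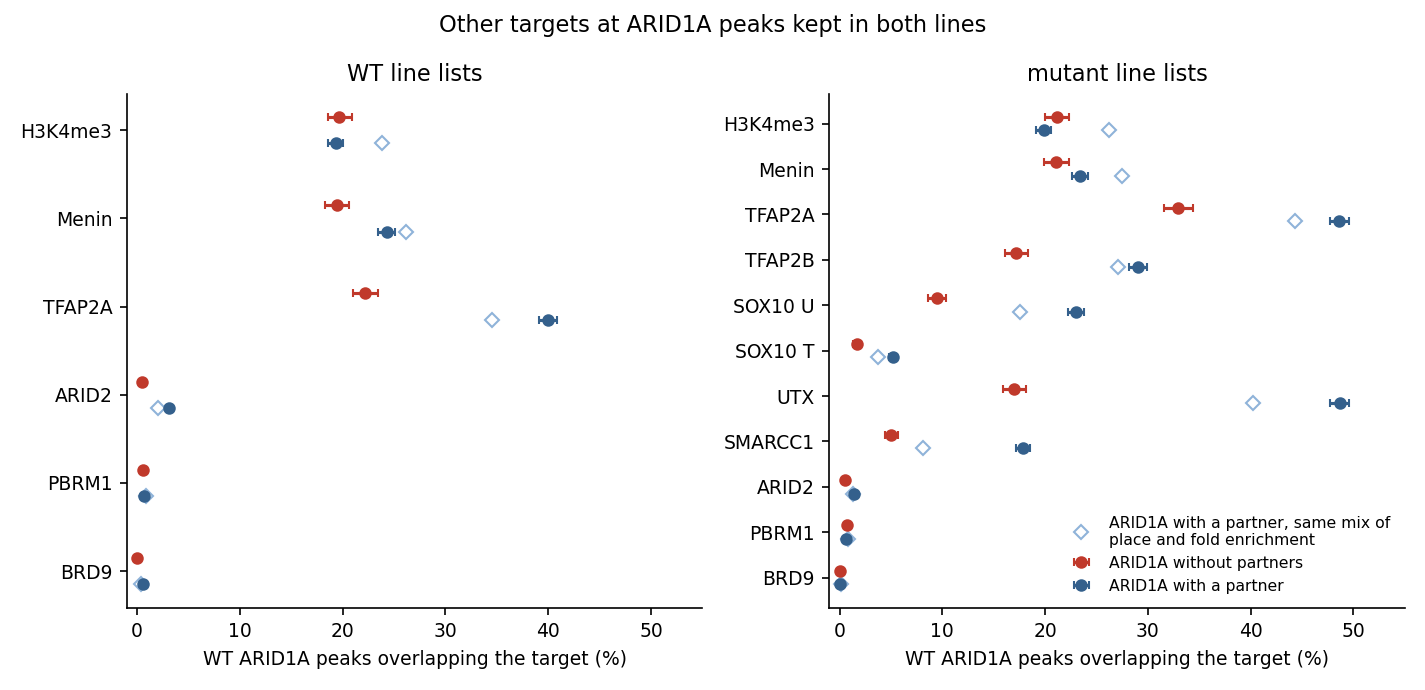
Percent of partner-free (red) and partnered (blue) ARID1A sites that overlap a peak of each other target, WT lists left and mutant lists right, with 95% Wilson intervals; open diamonds are partnered sites weighted to the place and fold enrichment of the partner-free sites. WT TFAP2A is at 22.2% against 40.0%, and mutant UTX at 17.0% against 48.7%, a gap on which the rule bears because it keeps WT UTX out of the red class only.

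UTX of the mutant line appeared at 756 sites that had no UTX peak in the WT line. That is 17.0% (15.9 to 18.1), against 48.7% (47.8 to 49.6) of partnered sites, 40.2% at like place and strength and 28.9% of all WT ARID1A peaks. The rule bears on this gap, since it keeps WT UTX out of the partner-free sites while 7285 of the 11280 partnered sites have it. Among partnered sites without WT UTX, mutant UTX was called at 20.6% (19.4 to 21.9). When the weighting used the mutant ARID1A fold enrichment in place of the WT value, a choice made after seeing the data, the partnered share was 36.1%. The 756 sites differed from the rest of the partner-free set in some mutant-line measurements and not in others. SOX10 U was called at 33.5% (30.2 to 36.9) of them and at 4.57% (3.94 to 5.29) of the other 3698, and mutant TFAP2A at 49.3% against 29.6%. Mutant H3K4me3 was at 19.3% (16.7 to 22.3) of them and 21.5% (20.2 to 22.9) of the others, and the intervals overlap. Their median mutant ARID1A fold enrichment was 13.6 against 8.63, while their WT fold enrichment was 7.16 against 7.13. The same split of the partnered sites gave SOX10 U at 40.6% with mutant UTX and 6.20% without it. Their mutant ARID1A fold enrichment was 19.3 against 11.1, beside WT values of 14.5 and 11.7. Mutant H3K4me3 did differ there, at 25.6% (24.4 to 26.8) against 14.4% (13.6 to 15.4). Beyond 5 kb lay 76.2% of the 756 sites and 68.7% of the other 3698, against 69.6% and 77.2% in the partnered split. Where mutant UTX and SOX10 U peaks overlapped partner-free sites, their summits lay a median of 58 bp and 65 bp from the ARID1A summit. At partnered sites the medians were 53 bp and 59 bp. Only overlapping peaks were measured, and the median widths are 310 bp for the sites, 275 bp for mutant UTX and 242 bp for SOX10 U. That choice keeps the distances short.

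SOX10, mapped in the mutant line, was called with the U antibody at 9.47% (8.65 to 10.4) of partner-free sites, 22.97% of partnered sites and 13.9% of all WT ARID1A peaks. Partnered sites weighted to the same place and WT ARID1A strength had SOX10 U at 17.5%. Without weighting, partnered sites that lack WT UTX had it at 10.2% (9.31 to 11.2). The T antibody gave a shorter list and was at 1.66% against 5.17% (2.99% of all), and 86.5% of the partner-free sites with SOX10 T also had SOX10 U. SMARCC1 of the mutant line was called at 4.98% of partner-free sites, against 17.8% of partnered sites and 10.2% of all WT ARID1A peaks. By the rule WT SMARCC1 is kept out of the partner-free sites, while 8217 of the 11280 partnered sites have it. Partnered sites weighted to the same place and WT ARID1A strength had mutant SMARCC1 at 8.16%. The mutant SMARCC1 list has 2910 peaks and the WT list 11507, and the part of list length was not tested.

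The subunits of the other SWI/SNF forms were rarely called. ARID2 was called at 0.516% of partner-free sites in each line, against 3.07% of partnered sites in WT and 1.39% in mutant cells, with 1.82% and 0.842% of all WT ARID1A peaks. PBRM1 was at 0.584% in WT and 0.696% in mutant cells, close to the 0.656% and 0.638% of partnered sites and to 0.554% and 0.541% of all WT ARID1A peaks. BRD9 was at none of the 4454 sites in either line, which allows a share of up to 0.0674% by the bound of 3 counts and of up to 0.0862% by the Wilson interval (0.302% of all WT ARID1A peaks in WT and 0.0315% in mutant cells). The PBAF and BRD9 lists are short, from 90 to 689 peaks, which bounds every one of these shares.

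The difference from partnered sites depended on which partner those had, a split made after the values above were seen. Sites with SMARCC1 as their only partner (3639) had WT TFAP2A at 17.2% (16.0 to 18.5), mutant UTX at 19.5% (18.2 to 20.8) and SOX10 U at 10.0% (9.10 to 11.0). The partner-free sites had 22.2% (21.0 to 23.4), 17.0% (15.9 to 18.1) and 9.47% (8.65 to 10.4), and of these only the SOX10 U intervals overlap. No weighting by place or strength was made for this split. Sites with UTX alone (906) had the same targets at 36.9%, 46.5% and 21.6%, sites with KMT2D alone (244) at 61.1%, 32.8% and 9.84%, and sites with all 3 partners (2729) at 56.4%, 76.4% and 39.7%. Partnered sites without WT UTX had WT TFAP2A at 20.8% (19.5 to 22.04), an interval that overlaps the partner-free one. Partner-free sites differed from SMARCC1-only sites in place and in several targets: 17.4% against 3.49% (2.94 to 4.14) were at gene ends, 19.7% against 4.73% had WT H3K4me3, and 19.4% against 7.75% had WT Menin. Mutant TFAP2A was at 33.0% (31.6 to 34.4) against 25.2% (23.8 to 26.7), and mutant SMARCC1 at 4.98% against 17.8% (16.6 to 19.1), the last a contrast on which the rule bears. Their median WT fold enrichment was also lower, 7.13 against 11.3. Without WT SMARCC1 but with UTX or KMT2D, mutant SMARCC1 was called at 3.75% (3.14 to 4.49), against 4.98% (4.38 to 5.66) of partner-free sites.

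**Figure D4:**
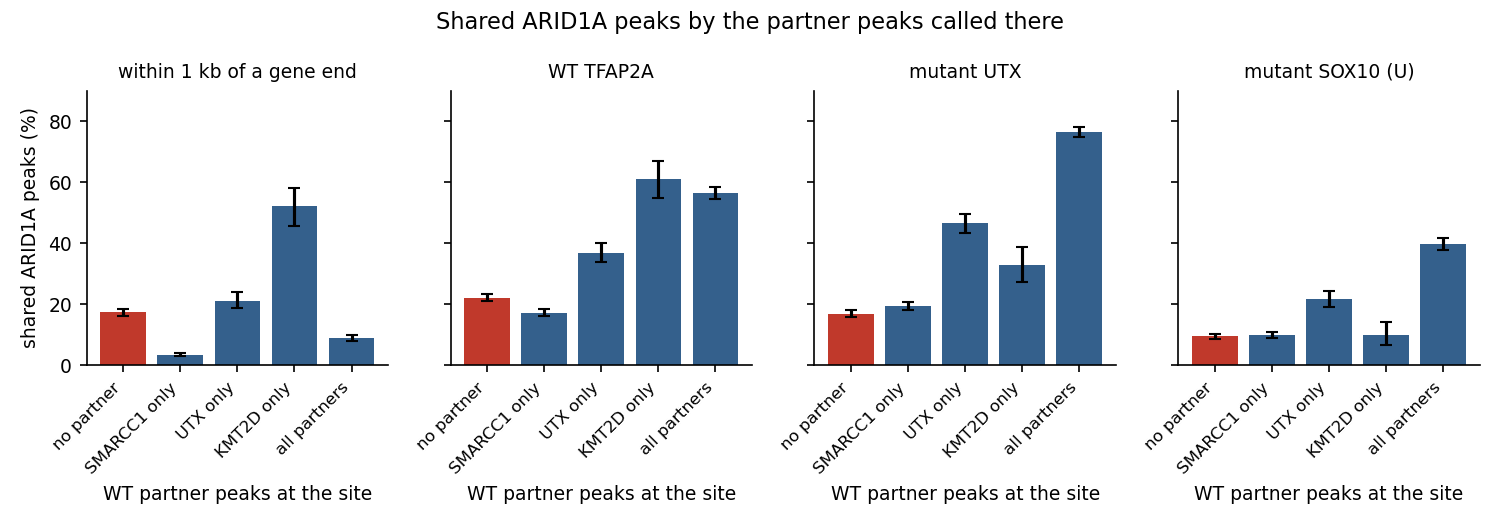
Percent of shared ARID1A peaks within 1 kb of a gene end and with WT TFAP2A, mutant UTX or mutant SOX10 U, for sites with no partner (red) and with SMARCC1 only, UTX only, KMT2D only or all partners (blue), with 95% Wilson intervals. Partner-free and SMARCC1-only sites, not weighted by place or strength, have TFAP2A at 22.2% and 17.2%, UTX at 17.0% and 19.5%, and SOX10 U at 9.47% and 10.0%. Partner-free sites lie far above SMARCC1-only sites for gene ends, 17.4% against 3.49%.

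The strongest partner-free site at a gene end was at the start of Bag3 (chr7:128523463-128523684), the co-chaperone of Hsp70 whose promoter is printed above. Its ARID1A fold enrichment was 20.5 in WT and 34.1 in mutant cells. The same place carried H3K4me3 (17.3 WT, 27.9 mutant), Menin (8.85 WT, 16.5 mutant), TFAP2A (10.4 WT, 17.0 mutant), and mutant TFAP2B (6.22) and UTX (11.3). Sel1l (chr12:91848951-91849421), a subunit of the ubiquitin ligase that clears misfolded proteins from the endoplasmic reticulum, had the same 8 other peaks, with ARID1A at 14.7 and 12.2. Eif4ebp2 (chr10:61452821-61453023), a repressor of cap-dependent translation, had ARID1A at 15.6 and 16.4, TFAP2A at 13.2 and 39.0 and mutant H3K4me3 at 35.9, with no WT H3K4me3 peak over the site itself. Gsap (chr5:21175203-21175679), which takes part in gamma-secretase activity, had ARID1A at 14.5 and 22.8 and, of the other lists, only mutant SOX10 (9.07 with U, 10.8 with T), UTX (7.83) and TFAP2A (5.09).

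Of the 10 highest gene-end sites, 4 had ARID1A alone. They were at Lamc3, a laminin chain of the basement membrane (chr2:31948441-31949017, 17.3 WT and 14.8 mutant), Lrtm2 (chr6:119333180-119333569, 16.8 and 12.9), Mlh3, a DNA mismatch repair gene (chr12:85233489-85233861, 16.4 and 30.1), and Grap2, an adaptor of lymphocyte signalling (chr15:80653836-80654242, 14.5 and 11.5). None of the 4 overlapped a start in the promoter table, and the nearest starts listed there were 1286, 2414, 14008 and 30353 bp away. That table is not complete, so a nearer start may be missing from it. For the site 78 bp from an end of Snai2, the nearest listed start was 76033 bp away and of another locus. Sap30bp (13.4 and 12.9) was the next gene-end site with ARID1A alone. The other 2 of the 10 were Phactr4, a regulator of protein phosphatase 1 and actin (18.5 and 25.6), and 1810058I24Rik (16.8 and 25.6), each with a mutant SMARCC1 peak.

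Beyond 5 kb of a gene end the highest value was at Smad3, a transducer of TGF-beta signals, inside the gene body and 27791 bp from its nearer end (chr9:63674557-63674901), with ARID1A at 31.7 in WT and 22.2 in mutant cells. Only mutant TFAP2A (5.06) was called there as well. A site 23376 bp from Tlr2, a receptor of innate immunity (chr3:83865200-83865567), had ARID1A at 30.4 and 28.4 with mutant SMARCC1 (4.83). The site nearest Tomm20, a receptor of mitochondrial protein import (chr8:126919305-126919797), had ARID1A at 28.1 and 39.6, TFAP2A in both lines (12.6 and 20.3) and TFAP2B (12.4). The site nearest Met, the receptor of hepatocyte growth factor (chr6:17408190-17408425, 54924 bp away), had ARID1A at 27.0 and 29.4 and no other peak. The site nearest Lyst, a gene of lysosome and melanosome size (chr13:13551937-13552342, 37969 bp away), likewise had ARID1A alone, at 24.1 and 30.6. The others of the 10 highest were nearest Rgs2 and St3gal2 (25.8 each in the WT line), Zfhx3 (24.1), Nrd1 (23.01) and Nhej1 (21.9). At Nrd1 the site lay 85 bp from a partner peak and 908 bp from a start of Osbpl9 in the promoter table, and it carried H3K4me3 and Menin in both lines. The nearest gene is a label by distance, and none of these data tie a distal site to a gene.

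**Figure D5:**
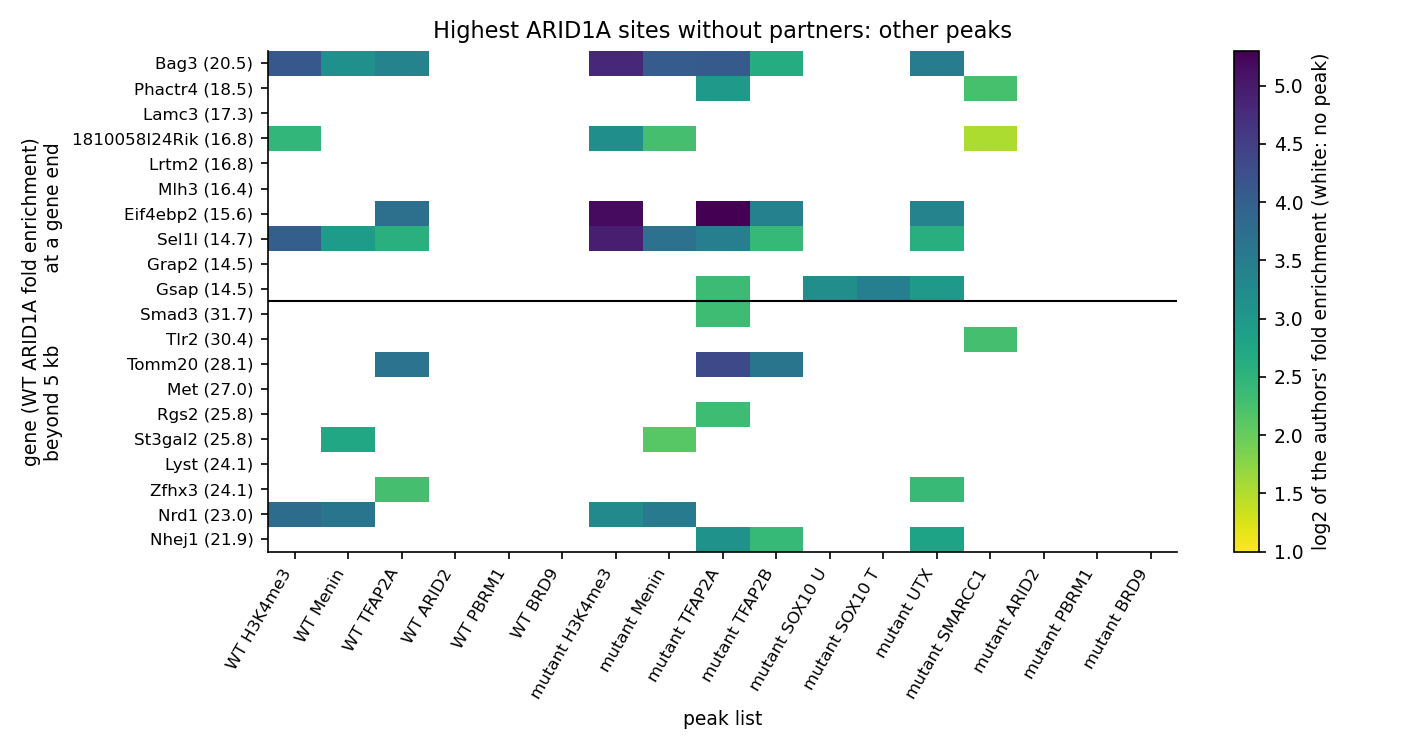
The 10 highest partner-free sites at gene ends (top) and beyond 5 kb (bottom), with WT ARID1A fold enrichment beside the gene, against the other 17 peak lists; colour is log2 of the authors' fold enrichment, which is not comparable between columns, and white means no peak. Lamc3, Lrtm2, Mlh3, Grap2, Met and Lyst have no other peak, and Bag3 and Sel1l each have 8.

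Sites with many other peaks were rare. Tomm70a (chr16:57121146-57121696), another receptor of mitochondrial import, and Zfp386 (chr12:116047507-116047890), a zinc finger gene, were called in 13 libraries. Tomm70a had PBRM1 of both lines (18.6 WT, 10.5 mutant) and Zfp386 had ARID2 of both lines, so these belong to the few partner-free sites with a PBAF subunit. Their ARID1A fold enrichments were modest, 7.70 and 6.70 in WT and 8.63 and 7.92 in mutant cells. Msantd4, Tnrc6a, a partner of Argonaute in microRNA silencing, and the site 32967 bp from Pum2, an RNA-binding repressor of translation, had 12 libraries each.

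The mutant UTX peaks at partner-free sites included some of high value, named here after their values were seen. The highest was 116551 bp from Ralgapa2 (chr2:146628805-146629020), where ARID1A was 5.43 in WT and 34.8 in mutant cells. The partner-free site with the highest SOX10 U peak lay in Cyb5r2 (chr7:107722644-107722908), with ARID1A at 5.43 and 50.4. Fold enrichments of the 2 lists are on separate scales, so these pairs of values are set side by side only.

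At gene ends the partner-free sites touched 853 of 21900 protein-coding genes (3.89%). WT H3K4me3 was present at a gene end of 777 of the 853 (91.1%), and of all genes with WT H3K4me3 there, 7.20% had a partner-free site. A partnered site was at a gene end of 49 of the 853 as well. Within a gene body or 20 kb of it, 4018 genes had a partner-free site, and 1744 of these (43.4%) had no partnered site in the same span, against 65.7% of all 21900 genes. The genes with the most were long: Npas3, a transcription factor gene of 824 kb in nervous tissue, with 9 beside 3 partnered sites, Dst, a cytoskeletal linker, with 8 beside 6, Fmnl2, an actin-nucleating formin, with 7 beside 8, Spata13, a guanine nucleotide exchange factor, with 6 beside 2, and Lpp, a focal adhesion protein, with 6 beside 14.

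Gene groups had few such sites at their ends. Of 22 pigment cell genes, 3 had one: Erbb3, the neuregulin receptor (ARID1A 4.43 WT, 8.16 mutant), Mc1r, the melanocortin receptor (10.8 and 17.8), and Snai2, a neural crest repressor (4.30 and 5.22). Mc1r had no H3K4me3 peak at its site and only mutant TFAP2A (4.24), and a neighbouring gene's end may lie within the same 1 kb. Of 22 genes of the TEAD and YAP pathway, 3 had one: the Hippo kinase Stk3 (9.97 and 14.99), its cofactor Mob1a (4.57 and 4.58) and Ankrd1, a YAP target (6.56 and 28.2). Ankrd1 had ARID1A alone, while Stk3 and Mob1a had H3K4me3, Menin and TFAP2A in both lines. Sox9 of the 20 mesenchymal state genes had 2 sites (5.83 and 4.63 in the WT line), and Mafk of the 16 AP-1 family genes had 1 with no other target.

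Of 31 SWI/SNF genes 1 had a partner-free site at an end, Smarcd1 (7.13 WT, 5.80 mutant), where TFAP2A was 39.5 in WT and 31.4 in mutant cells. None of 19 COMPASS genes had one, and of 26 Polycomb genes Phf1 and Pcgf5 did. Among housekeeping groups the counts were 1 of 33 for cytosolic ribosomal proteins (Rpl15), 2 of 45 for mitochondrial ribosomal proteins, 2 of 48 for oxidative phosphorylation, 2 of 31 for the proteasome, 3 of 34 for translation initiation, 3 of 39 for DNA replication and repair, 2 of 22 for glycolysis and 1 of 18 for MAPK feedback (Dusp5). None of 36 splicing, 32 cell cycle and 18 replication-dependent histone genes had one, though 6, 6 and 9 of them had a partnered site there. Atp5b, the beta subunit of ATP synthase, was the busiest of the listed genes, with 12 libraries and ARID2 in both lines (10.9 WT, 16.9 mutant). Against 3.89% over all genes and 7.20% over genes with WT H3K4me3, these counts are too small to set any group apart.

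The cell type labels were compared with marker genes through H3K4me3. Of 8 pigment cell markers, Mitf, Pmel and Erbb3 had it at a gene end in the WT line and Sox10 as well in the mutant line, and Tyr, Tyrp1, Dct and Mlana had it in neither. Of 6 fibroblast markers 3 had it in each line, as did 1 of 4 keratinocyte and 1 of 4 endothelial markers, and blood markers had 0 and 1 of 4. Apart from Erbb3, none of these markers had a partner-free site at a gene end.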

How the data were processed

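CUT&RUN peak lists of 22 libraries from 2 mouse melanoma lines were used, and the 2 IgG libraries were not analysed here. Per the submitters' processing notes, FastQC, MultiQC, Bowtie2, MACS2 and the mm10 build were named; the sources used here do not give versions, settings or the control for peak calling. Every deposited list is a per-library MACS2 narrowPeak file by the authors, with a score, the fold enrichment at the summit (a ratio), the −log10 p-value and −log10 q-value, and the summit offset. The lists give no read depth, so the precision of a single peak is unknown. Only the authors' fold enrichment, −log10 q and positions were used, and fold enrichment was compared within a list.

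Membership and the presence of a target meant at least 1 bp of overlap. Gene ends and promoter windows came from RefSeq tables of GRCm38.p6, with no genome sequence: 21900 protein-coding genes, and 32851 windows. The windows hold no chromosome 18 and lack the starts of some genes on other chromosomes. Shares carry Wilson 95% intervals. Partnered sites were also averaged with weights that match the partner-free sites over 3 classes of gene distance and 5 of fold enrichment. With 1 library per line and target no test was made. Computation used pandas 2.3.3 with SciPy 1.17.1 under Python 3.11.15, and figures Matplotlib 3.10.9. Overlaps, gaps and distances were tested on simulated data, and 1000 of 1000 simulated intervals matched a direct count. The members and the gene lists were chosen with earlier results of these data known. Genes named are those of the 10 strongest sites at gene ends and the 10 beyond 5 kb, the 5 genes with most sites, the listed genes with a site at an end, the 5 sites with most libraries and the 5 strongest ARID1A-alone sites at gene ends, unless said otherwise.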

Additional observations from a re-analysis of the deposited data

How the results depend on the processing

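With a −log10 q of at least 5 asked of ARID1A in both lines, 13.1% of partner-free sites were at gene ends and 74.1% beyond 5 kb, and 14.8% had WT H3K4me3, 15.8% WT Menin and 19.5% mutant UTX. With an overlap of at least 50% of the shorter peak, 17.4% had WT H3K4me3, 18.1% WT Menin and 31.2% mutant TFAP2A. Above the median WT fold enrichment there were 1318 sites, with 9.10% at gene ends, 78.8% beyond 5 kb, and 9.94% with WT H3K4me3, 11.8% with WT Menin, 19.95% with WT TFAP2A and 29.1% with mutant TFAP2A. With gene ends taken as 2.5 kb, 23.2% were at gene ends. The other planned settings, among them a margin of 1 kb around partner peaks and starts alone in place of gene ends, moved no share beyond its interval. The share by starts alone, 749 of 4319 sites, rests on the promoter table, which lacks some starts. No paired analysis was possible because each line and target had 1 library and the result comes from no test. Missing depth limits every statement on an absent peak.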

Other observations

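At gene ends the partner-free sites carried WT H3K4me3 about as often as partnered sites, and WT Menin and mutant TFAP2A less often. Of the 773, 78.9% (75.9 to 81.6) had WT H3K4me3, 63.9% (60.5 to 67.2) WT Menin and 69.7% (66.4 to 72.9) mutant TFAP2A. Partnered gene-end sites had 75.4% (73.3 to 77.3), 70.6% (68.4 to 72.7) and 84.2% (82.4 to 85.8). The 3110 WT ARID1A peaks at gene ends had 74.7%, 65.3% and 73.6%. Mutant SOX10 U was at 5.95% (4.49 to 7.85) of the 773 and mutant UTX at 13.5% (11.2 to 16.0). SOX10 U was at 22.7% of partnered gene-end sites and 14.5% of all WT ARID1A peaks there, and mutant UTX at 59.9% and 38.3%. Beyond 5 kb SOX10 U was at 10.7% of partner-free sites, 23.3% of partnered sites and 13.95% of all WT ARID1A peaks. Mutant UTX was at 18.5%, 46.1% and 27.2% of the same classes. The rule bears on the gaps in mutant UTX, since it keeps WT UTX out of the partner-free sites.

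Among other letters searched in promoter windows, the NF-Y letters CCAAT stood in 43.6% (39.0 to 48.3) of windows with a start in a partner-free site and in 53.7% of those with a start in a partnered site, against 37.4% of all windows. The ETS letters CCGGAAG stood in 18.8% (15.4 to 22.7), 15.6% and 8.86% of the same 3 classes.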
